A study of Mus musculus with 15 samples.

Results

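The matrix metalloproteinases (MMPs), the ADAMTS proteases and their tissue inhibitors (TIMPs) were followed in cultured mouse lymph node lymphatic endothelial cells given VEGF-C. Members were every gene whose symbol was Mmp, Adamts or Timp followed by a number (with a or b allowed for MMPs, and TIMPs numbered up to 4) and whose counts were not all 0. Of the 45706 genes in the deposited table, 46 met this: 23 MMP, 19 ADAMTS and 4 TIMP genes. A filter on low counts left 33 of them (15 MMP, 14 ADAMTS and all 4 TIMP genes) among 17650 genes that were tested.

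MMPs and ADAMTS proteases are zinc enzymes that cut the extracellular matrix. Membrane-type MMPs work at the cell surface, and MMP14 activates the MMP2 proenzyme there in a complex with TIMP2. Among the ADAMTS enzymes, one group cuts large proteoglycans such as versican and aggrecan, another trims fibrillar procollagens, and ADAMTS3 with its cofactor CCBE1 cuts the VEGF-C precursor, a step needed for lymphatic vessels to form. TIMPs bind and block MMPs, and TIMP3 also blocks several ADAMTS enzymes.

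RNA came from Pdpn+ CD31+ CD45- cells of female C57Bl/6 mice with no stated genetic change, pooled from popliteal, inguinal, cervical, brachial and axillary nodes. They were grown in serum-containing medium and kept for 72 h with no added growth factor (unstimulated), with 10 ng/mL or with 100 ng/mL of purified recombinant mouse VEGF-C, which acts on the receptors encoded by Flt4 and Kdr. There were 5 libraries per dose, A to E, of 27784906 to 38590841 estimated counts. Whether the 5 libraries of a dose came from separate cultures is not stated in the labels. The p-values therefore reflect library-to-library spread, which could be technical in origin.

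All libraries carried a set of lymphatic and general endothelial markers. Summed over 16 genes, these had 14800 to 21000 CPM at 100 ng/mL, against 12000 to 14100 CPM unstimulated. General endothelial genes weighed heavily in this sum, so it is not a measure of lymphatic identity alone. Cdh5 and Pecam1 had unstimulated means of 2160 and 1590 CPM, where Flt4 and Prox1 had 615 and 242 CPM. CPM is a gene's count relative to the total of its library, corrected for composition and put on a fixed scale. It is not the number of counts in a library. Ccl21a, a chemokine typical of lymphatic endothelium, was near 0 throughout, with a mean of 0.0454 CPM at 100 ng/mL, against 0 CPM unstimulated. Fibroblastic and mural cell markers were present as well. Library B at 100 ng/mL, library D at 10 ng/mL and unstimulated library E stood apart from the rest of their groups on the second principal component, which held 12.6% of the variance, and the main counts are given with and without them.

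At 100 ng/mL, 22 of the 33 tested members differed from unstimulated cells at an adjusted p under 0.05 (edgeR quasi-likelihood test, Benjamini-Hochberg over all genes): 6 were higher and 16 lower. Across all 17650 genes 21.4% were higher and 21.5% lower. The 6 that rose were the membrane-type Mmp15 and Mmp14 and the secreted Adamts1, Adamts4, Adamts15 and Adamts17. Those that fell included both gelatinases (Mmp2 and Mmp9), all 4 tested genes of the chromosome 9 MMP cluster, all 3 procollagen N-proteinases (Adamts2, Adamts3 and Adamts14) and the inhibitors Timp1 and Timp3.

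Many of these changes were large. By at least 2-fold, 5 members were higher and 13 lower, where 4.03% and 8.29% of all genes passed the same rule. The groups did not overlap for 16 members (6 higher and 10 lower), against 27.2% of all tested genes. The median log2 fold change of the 33 members was -0.46 and of all genes 0.008, and the median absolute values were 1.2 and 0.23. Without the 3 libraries that stood apart, a setting chosen after the data were seen, the counts were 7 higher and 14 lower: Mmp24 was gained, and Mmp9 and Timp3 were lost. Of all 17618 genes tested in that setting, 4078 were higher and 4150 lower.

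The falls went with a fall in markers of other cell types. Of 18 fibroblastic and mural markers 17 were tested, and at 100 ng/mL 0 were higher and 15 lower, with summed levels of 962 to 1410 CPM, against 3240 to 4720 CPM unstimulated. Leukocyte markers, 10 of 12 of them lower, summed to 25.9 to 46.9 CPM at 100 ng/mL, against 56.5 to 157 CPM unstimulated. Epithelial markers, 1 of 8 higher and 5 lower, summed to 31.6 to 61.3 CPM, against 84.9 to 136 CPM. Of 15 tested lymphatic and general endothelial markers, 9 were higher and 2 lower. Flt4 and Lyve1 were among those higher, and Prox1 and Pdpn were not called. The 2 lower ones were Itga2b and Emcn, with log2 fold changes of -2.05 ± 0.23 and -0.77 ± 0.13.

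Among the 100 ng/mL libraries, B had the highest fibroblastic and mural sum, at 1410 CPM, and the lowest endothelial marker sum, at 14800 CPM. It also had the highest Timp1, Mmp2, Mmp3, Mmp13, Mmp23, Adamts3 and Adamts14. At 10 ng/mL, B had the highest fibroblastic and mural sum, at 4480 CPM, and the highest Mmp3, Mmp9, Mmp12, Mmp13, Adamts2, Adamts3 and Adamts18. For the fibroblastic and mural sum this did not hold throughout. Unstimulated A had the highest fibroblastic and mural sum of its group, at 4720 CPM, and the highest value of 0 of the 21 members with values in full. Unstimulated C, whose sum was close to that, at 4640 CPM, had the highest value of 9 members, all of them called lower at 100 ng/mL. Unstimulated E, at 3320 CPM, was also highest for 9 members, among them Adamts14, Mmp23, Timp1 and Timp3, which were called lower. At 100 ng/mL, Adamts2, Mmp9, Mmp12, Mmp17 and Mmp28 were highest in E, whose sum was 1090 CPM, and Mmp28 was lowest in B. The leukocyte marker sum was highest of its group in unstimulated C, 10 ng/mL B and 100 ng/mL B, at 157, 128 and 46.9 CPM. It was 88.4 CPM in unstimulated E and 42.8 CPM in 100 ng/mL E, which were also highest for several members that fell. The part of other cell types in the falls was not tested. In bulk RNA, fewer cells of a type and less RNA per cell cannot be told apart. Nor can marker transcripts of other cells be told from the same transcripts made by the endothelial cells themselves.

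**Figure D1:**
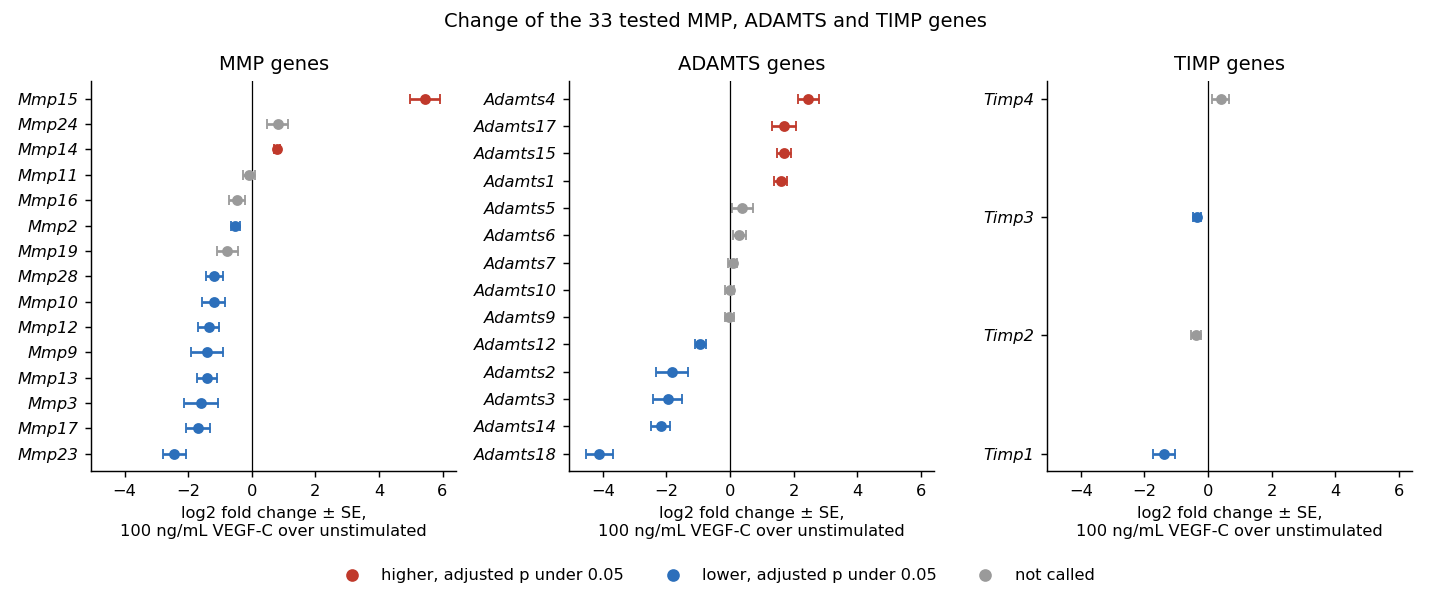
Log2 fold change ± SE of each of the 33 tested members at 100 ng/mL VEGF-C over unstimulated cells, one panel per family, red where higher, blue where lower and grey where not called. Mmp15 lies far to the right at 5.45 and Adamts18 far to the left at -4.11, and both inhibitors with a call, Timp1 and Timp3, have negative values.

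Of the 4 tested transmembrane MMP genes, 2 rose and none fell. Mmp15, which encodes a membrane-anchored collagenolytic enzyme related to MMP14, lies on chromosome 8 (GRCm38 chr8:95352268-95375080). It had 0.978, 1.88, 1.36, 1.67 and 3.25 CPM in the unstimulated libraries, 1.5, 1.43, 2.12, 4.17 and 1.06 CPM at 10 ng/mL and 125, 73.4, 29.7, 103 and 70.6 CPM at 100 ng/mL. The 100 ng/mL libraries all lay far above every other library, while those at 10 ng/mL and the unstimulated ones covered the same range. The log2 fold change at 100 ng/mL was 5.45 ± 0.46 (SE; edgeR adjusted p = 3.48e-07), a 43.7-fold difference.

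Mmp14, the main membrane-type collagenase and activator of pro-MMP2, lies on chromosome 14 (chr14:54431612-54445364). It had 238, 189, 239, 197 and 240 CPM in the unstimulated libraries, 172, 220, 183, 233 and 195 CPM at 10 ng/mL and 388, 377, 346, 413 and 393 CPM at 100 ng/mL. All 5 libraries at 100 ng/mL were above all 10 others, with little spread within a dose. Its log2 fold change was 0.79 ± 0.09 (SE; edgeR adjusted p = 8.99e-06). The other transmembrane genes, Mmp16 and Mmp24, did not pass this test: their log2 fold changes were -0.46 ± 0.25 (edgeR adjusted p = 0.16) and 0.81 ± 0.33 (edgeR adjusted p = 0.0637). Mmp24 was called without unstimulated E or without 100 ng/mL C.

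The promoters of Mmp15 and Mmp14 are shown because these genes rose together. Each runs from 250 bases before to 50 bases after the start of the gene in RefSeq (GRCm38.p6), and capitals mark the GC box letters GGGCGG, or CCGCCC on the other strand, to which Sp factors can bind. The AP-1 and TATA letters given further on were searched too and not found in either.
Mmp15 (chr8:95352046-95352345, plus strand): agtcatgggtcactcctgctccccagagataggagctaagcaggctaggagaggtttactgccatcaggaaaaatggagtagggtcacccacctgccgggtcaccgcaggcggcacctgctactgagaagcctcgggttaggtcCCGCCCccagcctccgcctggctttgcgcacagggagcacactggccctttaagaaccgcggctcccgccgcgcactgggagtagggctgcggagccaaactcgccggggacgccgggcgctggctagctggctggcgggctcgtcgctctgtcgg
Mmp14 (chr14:54431348-54431647, plus strand): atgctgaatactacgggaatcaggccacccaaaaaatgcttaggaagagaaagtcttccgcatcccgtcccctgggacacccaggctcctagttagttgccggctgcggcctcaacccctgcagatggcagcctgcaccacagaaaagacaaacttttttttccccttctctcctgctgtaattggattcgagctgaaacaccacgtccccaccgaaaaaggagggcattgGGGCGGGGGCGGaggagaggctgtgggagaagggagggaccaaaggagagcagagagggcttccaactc
The GC box begins 106 bases before the Mmp15 start, and in Mmp14 it stands in 2 adjoining copies that begin 19 and 13 bases before the start. These letters occur in 35.7% of the 32851 mouse promoters in the same table, so their presence is common. A match is a description of the letters and not a site that was shown to be used.

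Proteoglycan-cleaving ADAMTS genes made up most of the other rises. Of 7 such members 5 were tested, and Adamts1, Adamts4 and Adamts15 rose while none fell. Adamts1, which cuts versican and aggrecan, is on chromosome 16 (chr16:85793827-85803113). It had a lowest, median and highest value of 94.9, 111 and 158 CPM in the unstimulated libraries, 66.5, 75.2, 99.9, 145 and 85.2 CPM at 10 ng/mL and 370, 361, 287, 434 and 340 CPM at 100 ng/mL. The groups at 100 ng/mL and at the lower doses did not overlap. This gave a log2 fold change of 1.6 ± 0.2 (SE; edgeR adjusted p = 1.4e-05), or 3.03-fold.

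Adamts4, a strong aggrecanase, had 14.7, 16, 18.5, 13.9 and 32.1 CPM in the unstimulated libraries, 12.4, 14.6, 15.2, 34.4 and 12.8 CPM at 10 ng/mL and 129, 120, 57.8, 120 and 96.8 CPM at 100 ng/mL. The 100 ng/mL libraries again lay above all others, but unstimulated E and 10 ng/mL D stood well above the rest of their groups, at 32.1 and 34.4 CPM. Its log2 fold change was 2.46 ± 0.33 (SE; edgeR adjusted p = 2.65e-05).

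Adamts15, another enzyme of the versican-cleaving group, was far less abundant. It had 0.635, 0.478, 0.558, 0.618 and 0.732 CPM in the unstimulated libraries, 0.306, 0.365, 0.504, 0.784 and 0.403 CPM at 10 ng/mL and 1.93, 2.17, 1.38, 2.45 and 1.96 CPM at 100 ng/mL. The lowest value at 100 ng/mL exceeded the highest of the other doses. It differed by a log2 fold change of 1.7 ± 0.21 (SE; edgeR adjusted p = 1.57e-05). Adamts5, which lies next to Adamts1 on chromosome 16 (chr16:85856173-85901828), had 66.6 ± 21.3 CPM at 100 ng/mL and 50.9 ± 25 CPM unstimulated (SD, n = 5 each), and Adamts9 averaged 103 CPM at 100 ng/mL and 104 CPM unstimulated. Neither was called: the log2 fold changes were 0.39 ± 0.33 and -0.02 ± 0.14.

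The promoter of Adamts1 is printed beside those above, with GC boxes and the TATA letters TATAAA in capitals (either strand, with no overlap between them).
Adamts1 (chr16:85803064-85803363, minus strand): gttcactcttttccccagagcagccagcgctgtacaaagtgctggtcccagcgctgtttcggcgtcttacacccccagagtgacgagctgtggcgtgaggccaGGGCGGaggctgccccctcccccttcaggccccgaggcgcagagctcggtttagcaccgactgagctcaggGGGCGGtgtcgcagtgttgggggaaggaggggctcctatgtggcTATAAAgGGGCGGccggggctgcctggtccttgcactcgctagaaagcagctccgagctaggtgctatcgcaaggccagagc
It holds 3 GC boxes and a TATAAA that begins 32 bases before the start. TATAAA or its reverse complement occurs in 13.6% of all promoters in the table.

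**Figure D2:**
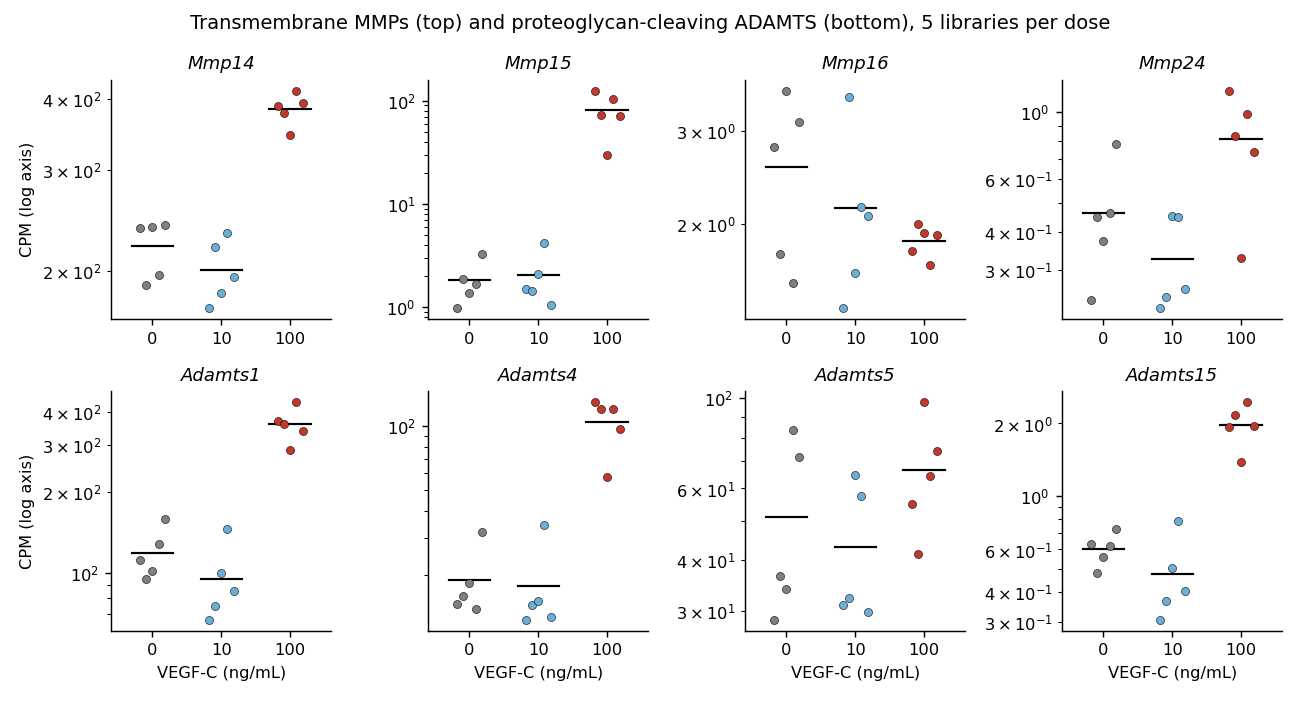
CPM per library on a log axis for the 4 transmembrane MMP genes (top) and 4 proteoglycan-cleaving ADAMTS genes (bottom) at 0, 10 and 100 ng/mL VEGF-C, with lines at the group means. Mmp14, Mmp15, Adamts1, Adamts4 and Adamts15 are separated at 100 ng/mL, and Mmp16, Mmp24 and Adamts5 overlap.

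In the lower doses the same libraries were high for several of these genes. Unstimulated E had the highest Mmp15, Mmp14, Adamts1, Adamts4 and Adamts15 of its group, and so did 10 ng/mL D. These are 2 of the 3 libraries that stood apart, and their part in the result was not tested beyond the counts without them. Without all 3 libraries, each of the 6 higher calls was kept. The sixth, Adamts17, an enzyme linked to fibrillin microfibrils, ranged from 0.295 to 0.74 CPM at 100 ng/mL, against 0.0793 to 0.217 CPM unstimulated, without overlap, and its log2 fold change was 1.7 ± 0.38 (SE; edgeR adjusted p = 0.00218).

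The procollagen N-proteinases moved the other way. ADAMTS2, ADAMTS3 and ADAMTS14 remove the amino-terminal propeptides of fibrillar procollagens, and all 3 genes fell. Adamts14 had 12.8, 9.1, 10.8, 14 and 17.6 CPM in the unstimulated libraries, 7.27, 8.98, 7.79, 10.7 and 9.12 CPM at 10 ng/mL and 3.18, 5.48, 1.44, 2.55 and 1.59 CPM at 100 ng/mL. All values at 100 ng/mL were below all unstimulated ones, with B the highest of the 100 ng/mL group. In the fit the log2 difference was -2.18 ± 0.3 (SE; edgeR adjusted p = 3.57e-05).

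Adamts2 had 39.5, 15, 43.4, 11.8 and 19.4 CPM in the unstimulated libraries, 14.1, 37.1, 8.59, 14.4 and 30.3 CPM at 10 ng/mL and 2.77, 9.55, 7.08, 4.2 and 12.5 CPM at 100 ng/mL. The spread within each dose was wide, and the highest 100 ng/mL library lay above the lowest unstimulated one. Its log2 fold change was -1.83 ± 0.5 (SE; edgeR adjusted p = 0.0079). Adamts3, which also activates VEGF-C, was scarce, with 0.291, 0.358, 0.403, 0.371 and 0.271 CPM in the unstimulated libraries, 0.223, 0.518, 0.159, 0.364 and 0.259 CPM at 10 ng/mL and 0.125, 0.167, 0, 0.073 and 0.0569 CPM at 100 ng/mL. It had 13.5 counts in all at 100 ng/mL, against 57.5 unstimulated, and no 100 ng/mL library reached an unstimulated one. The 100 ng/mL group differed by a log2 fold change of -1.96 ± 0.45 (SE; edgeR adjusted p = 0.00242).

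Adamts18, a secreted protease with few established substrates, showed the largest fall among the members. It had 3.2, 3.25, 4.31, 2.81 and 1.22 CPM in the unstimulated libraries, 4.76, 6.49, 4.45, 2.02 and 3.63 CPM at 10 ng/mL and 0.187, 0.167, 0.229, 0.073 and 0.171 CPM at 100 ng/mL. The group at 100 ng/mL was near the limit of counting and apart from the others, and the 10 ng/mL group overlapped the unstimulated one. The log2 fold change was -4.11 ± 0.43 (SE; edgeR adjusted p = 2.83e-06), 17.3-fold lower. Adamts12, reported to cut cartilage oligomeric matrix protein, fell by less than 2-fold, and its relative Adamts7 was not called, nor were the fibrillin-associated Adamts6 and Adamts10. Log2 fold changes were -0.93 ± 0.17, 0.09 ± 0.14, 0.3 ± 0.21 and 0 ± 0.14 in that order.

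Both gelatinases, which cut denatured collagen and basement membrane collagen, fell. Mmp2 had 227, 235, 226, 306 and 284 CPM in the unstimulated libraries, 175, 188, 252, 278 and 173 CPM at 10 ng/mL and 198, 206, 152, 168 and 165 CPM at 100 ng/mL. No value at 100 ng/mL reached the lowest unstimulated one, and the 10 ng/mL group overlapped both. This gave a log2 fold change of -0.52 ± 0.14 (SE; edgeR adjusted p = 0.00827). Mmp9 had 0.846, 1.13, 2.7, 0.557 and 1.57 CPM in the unstimulated libraries, 0.919, 2.86, 0.822, 2.02 and 0.921 CPM at 10 ng/mL and 0.218, 0.634, 0.328, 0.547 and 0.825 CPM at 100 ng/mL. Its groups overlapped and its log2 fold change of -1.4 ± 0.5 (SE; edgeR adjusted p = 0.0337) was the least steady of these: without unstimulated C the edgeR adjusted p was 0.111, and the call was also lost without unstimulated E or without 100 ng/mL A, C or D.

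Outside the cluster described next, 3 further MMP genes fell. Mmp23, an MMP with a cysteine-array domain in place of the usual hemopexin domain, had 8.44, 6.74, 9.46, 7.98 and 13.6 CPM in the unstimulated libraries, 4.71, 6.76, 5.59, 8.4 and 7.25 CPM at 10 ng/mL and 1.18, 4.14, 1.15, 0.876 and 1.17 CPM at 100 ng/mL. Library B at 100 ng/mL was above the other 4 at that dose, yet all 5 were under every unstimulated library. Its log2 fold change was -2.44 ± 0.36 (SE; edgeR adjusted p = 7.21e-05), and without 100 ng/mL B it was -3.07. Mmp17, whose product is held to the membrane by a lipid anchor, had 3.38, 1.64, 3.44, 1.45 and 1.98 CPM in the unstimulated libraries, 2.23, 2.74, 1.11, 1.57 and 3.25 CPM at 10 ng/mL and 0.374, 0.868, 0.917, 0.401 and 1.05 CPM at 100 ng/mL.

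Every Mmp17 value at 100 ng/mL was below the unstimulated ones, and the log2 fold change was -1.7 ± 0.37 (SE; edgeR adjusted p = 0.00176). Mmp28, which encodes epilysin, had a lowest, median and highest value of 6.72, 11.9 and 15.1 CPM in the unstimulated libraries, 11.5, 13.5, 14.3, 7.14 and 11.9 CPM at 10 ng/mL and 6.26, 2.84, 6.32, 3.72 and 6.4 CPM at 100 ng/mL. The highest 100 ng/mL library, at 6.4 CPM, lay just under the lowest unstimulated one, at 6.72 CPM. It differed by a log2 fold change of -1.18 ± 0.26 (SE; edgeR adjusted p = 0.0021). Mmp11 and Mmp19 were not called, with log2 fold changes of -0.09 ± 0.19 and -0.77 ± 0.33, and Mmp19 was called without unstimulated D or without 100 ng/mL C.

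**Figure D3:**
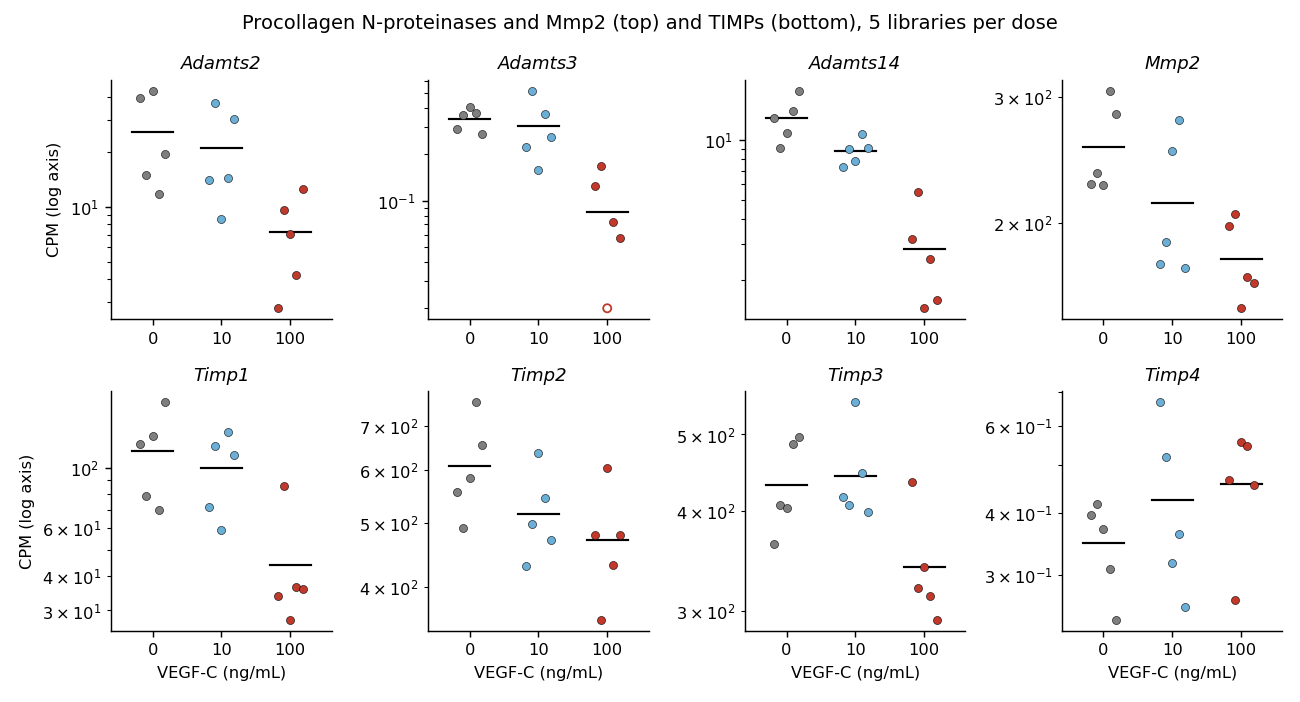
CPM per library on a log axis for the 3 procollagen N-proteinase genes and Mmp2 (top) and the 4 TIMP genes (bottom) at 0, 10 and 100 ng/mL VEGF-C, with lines at the group means and 1 open circle for the Adamts3 library at 0 CPM, drawn at the bottom of its panel. Adamts3, Adamts14 and Mmp2 are lower at 100 ng/mL without overlap with unstimulated libraries, and all 4 TIMP genes overlap.

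A run of 10 members lies side by side on chromosome 9, within 427.1 kb (GRCm38 chr9:7272514-7699585), in the order Mmp13, Mmp12, Mmp1b, Mmp3, Mmp1a, Mmp10, Mmp8, Mmp27, Mmp20 and Mmp7. They include genes of secreted collagenases, stromelysins, macrophage elastase, matrilysin and enamelysin, and Mmp1a is annotated as a polymorphic pseudogene. Of these, 4 passed the filter and all 4 fell at 100 ng/mL. The other 6 were below the filter. In a fit with no filter, Mmp27 was called lower, with 4.8 counts summed over the 100 ng/mL libraries, against 38.5 unstimulated (edgeR adjusted p = 0.00125). Mmp8, neutrophil collagenase, was called lower too, with 2.4 counts, against 22.7 (edgeR adjusted p = 0.0196).

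Mmp12, macrophage elastase, had 28.3, 22.1, 47.2, 24 and 17.2 CPM in the unstimulated libraries, 16.4, 38.1, 22.2, 17.8 and 21.9 CPM at 10 ng/mL and 9.75, 14.6, 7.11, 6.06 and 16.8 CPM at 100 ng/mL. Its 100 ng/mL libraries all lay under the unstimulated ones, by a narrow margin between 16.8 and 17.2 CPM. In the fit the log2 difference was -1.35 ± 0.33 (SE; edgeR adjusted p = 0.00406). Mmp13, an interstitial collagenase, had 12.9, 11.8, 20.4, 16.2 and 7.97 CPM in the unstimulated libraries, 7.27, 18.1, 15.6, 8.71 and 9.64 CPM at 10 ng/mL and 5.82, 6.78, 2.62, 3.98 and 6.63 CPM at 100 ng/mL. The 100 ng/mL and unstimulated libraries did not overlap, and the log2 fold change was -1.42 ± 0.32 (SE; edgeR adjusted p = 0.00224).

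The stromelysins of the cluster were near the detection limit. Mmp3 had 0.899, 0.657, 1.83, 0.649 and 1.11 CPM in the unstimulated libraries, 0.501, 1.16, 0.424, 0.728 and 0.518 CPM at 10 ng/mL and 0.218, 1.07, 0.0328, 0.182 and 0.199 CPM at 100 ng/mL. Library B at 100 ng/mL lay well within the unstimulated range, and the other 4 were below it. The 100 ng/mL group differed by a log2 fold change of -1.6 ± 0.55 (SE; edgeR adjusted p = 0.0294). Without 100 ng/mL B it was -2.66 (edgeR adjusted p = 0.000418), while the call was lost on leaving out unstimulated C or 100 ng/mL A, C, D or E. Mmp10 ranged from 0.0934 to 0.367 CPM at 100 ng/mL, against 0.358 to 0.837 CPM unstimulated, with a log2 fold change of -1.2 ± 0.36 (SE; edgeR adjusted p = 0.0136).

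**Figure D4:**
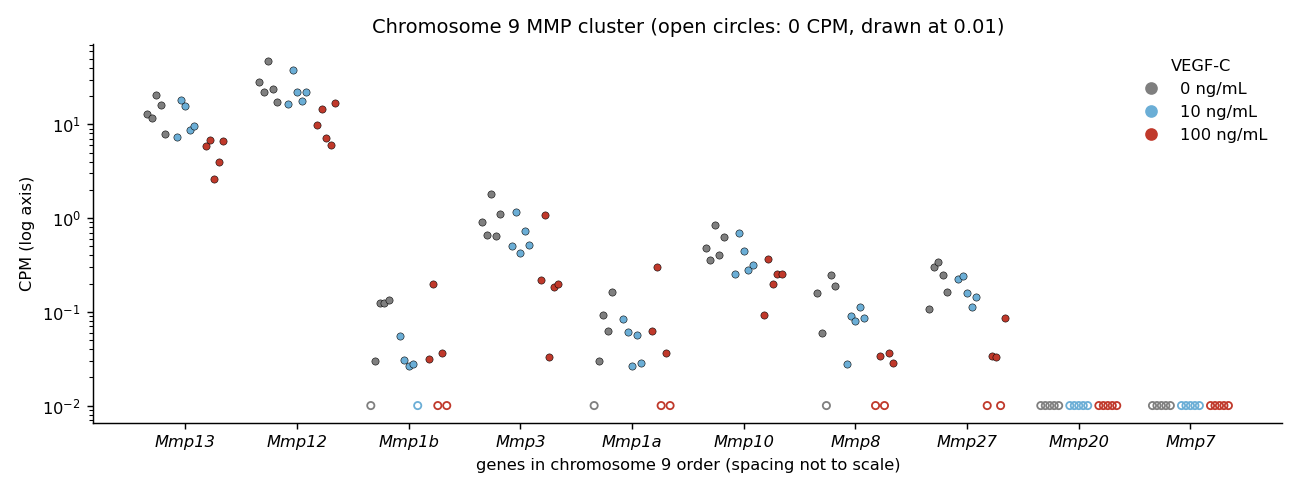
CPM per library on a log axis for the 10 MMP genes of the chromosome 9 cluster in gene order, with 3 columns per gene for 0, 10 and 100 ng/mL VEGF-C. Mmp13 and Mmp12 are the most abundant, Mmp3 and Mmp10 lie around 1 CPM and below, and Mmp20 and Mmp7 are at 0 CPM, after rounding of counts, in every library (0 is drawn as an open circle at the bottom).

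Promoters of the 4 tested cluster genes are printed to set them against those of Mmp15, Mmp14 and Adamts1. Capitals mark the AP-1 letters TGAGTCA or TGACTCA, which Fos and Jun dimers can bind, and TATAAA. GC boxes were searched too and none was found.
Mmp13 (chr9:7272264-7272563, plus strand): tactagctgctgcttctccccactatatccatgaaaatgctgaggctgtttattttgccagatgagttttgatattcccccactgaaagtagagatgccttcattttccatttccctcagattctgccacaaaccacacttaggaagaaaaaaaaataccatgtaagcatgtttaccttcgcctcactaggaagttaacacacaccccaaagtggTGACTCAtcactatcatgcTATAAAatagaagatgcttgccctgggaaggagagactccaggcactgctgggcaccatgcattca
Mmp12 (chr9:7344147-7344446, plus strand): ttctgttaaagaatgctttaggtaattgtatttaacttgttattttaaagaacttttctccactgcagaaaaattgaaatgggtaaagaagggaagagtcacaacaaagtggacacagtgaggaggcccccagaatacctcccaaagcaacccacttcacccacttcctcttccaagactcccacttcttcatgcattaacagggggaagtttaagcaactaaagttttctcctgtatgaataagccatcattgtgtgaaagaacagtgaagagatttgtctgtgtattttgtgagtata
Mmp3 (chr9:7445572-7445871, plus strand): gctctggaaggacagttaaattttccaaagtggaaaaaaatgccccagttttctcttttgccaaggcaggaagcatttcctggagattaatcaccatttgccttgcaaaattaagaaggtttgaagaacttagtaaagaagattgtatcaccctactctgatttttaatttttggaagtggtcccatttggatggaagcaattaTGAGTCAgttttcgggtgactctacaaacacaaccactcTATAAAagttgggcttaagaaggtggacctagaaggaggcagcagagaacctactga
Mmp10 (chr9:7502092-7502391, plus strand): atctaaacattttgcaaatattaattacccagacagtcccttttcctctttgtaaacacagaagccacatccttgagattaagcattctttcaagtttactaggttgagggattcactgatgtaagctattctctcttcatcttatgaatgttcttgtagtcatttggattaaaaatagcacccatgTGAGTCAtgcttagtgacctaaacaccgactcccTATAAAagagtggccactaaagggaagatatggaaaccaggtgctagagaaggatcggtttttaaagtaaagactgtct
AP-1 letters begin 35, 46 and 63 bases before the start of Mmp13, Mmp3 and Mmp10, each followed by a TATAAA, and the Mmp12 window held neither. Of the 10 cluster promoters 6 held the AP-1 letters and 8 the TATA letters, where 5.2% and 13.6% of all promoters did. All AP-1 matches among the 32 members with a matched promoter lay in this cluster. There was none in the 4 matched promoters of members that rose. Nor was there any in the matched promoters of members that fell from outside the cluster. Adamts4, Adamts15, Mmp2, Mmp9 and Mmp17, which were called, had no matched promoter and were not searched. Within the cluster Mmp12, Mmp8, Mmp27 and Mmp20 held no AP-1 letters. The letters thus mark a part of the cluster, and they do not part falls from rises.

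The cluster promoters held a median of 1 CpG in their 300 bases, against 17.5 in the 4 matched members that rose and 7 over all promoters. Within the members that fell this was not general: the promoters of Adamts14, Adamts2 and Adamts3 held 44, 41 and 41 CpGs and a GC box each. In all, 32 of the 46 members matched the promoter table. No match in a window says only that these letters are not in it.

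None of the 4 TIMP genes was called higher, and 2 were called lower. Timp1 had 122, 78.7, 131, 70.3 and 174 CPM in the unstimulated libraries, 71.9, 120, 59.4, 135 and 111 CPM at 10 ng/mL and 33.9, 86.1, 27.7, 36.6 and 36 CPM at 100 ng/mL. Library B at 100 ng/mL, at 86.1 CPM, lay within the unstimulated range and the other 4 were under it. The log2 fold change was -1.39 ± 0.34 (SE; edgeR adjusted p = 0.00382), and -1.78 without that library (edgeR adjusted p = 0.000176).

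Timp3, which binds to the matrix and inhibits several ADAMTS enzymes, had 364, 407, 404, 487 and 496 CPM in the unstimulated libraries, 417, 407, 549, 447 and 399 CPM at 10 ng/mL and 436, 320, 340, 313 and 292 CPM at 100 ng/mL. The 100 ng/mL and unstimulated groups overlapped. Its log2 fold change of -0.34 ± 0.12 (SE; edgeR adjusted p = 0.0339) was small, and the call was lost on leaving out unstimulated D or E or 100 ng/mL B, C, D or E. Timp2 had 556, 490, 584, 761 and 655 CPM in the unstimulated libraries, 429, 498, 637, 545 and 471 CPM at 10 ng/mL and 479, 356, 605, 431 and 479 CPM at 100 ng/mL. It lay at the threshold, with a log2 fold change of -0.37 ± 0.15 (SE; edgeR adjusted p = 0.0502), overlapping groups, and calls in 12 of 27 alternatives.

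Timp4 was scarce, with 0.397, 0.418, 0.372, 0.309 and 0.244 CPM in the unstimulated libraries, 0.669, 0.518, 0.318, 0.364 and 0.259 CPM at 10 ng/mL and 0.467, 0.267, 0.557, 0.547 and 0.455 CPM at 100 ng/mL. Its log2 fold change of 0.4 ± 0.27 (SE; edgeR adjusted p = 0.257) was not called. Each TIMP gene overlaps another gene in the annotation: Timp1, Timp3 and Timp4 lie within synapsin genes on the opposite strand, and these synapsin genes had 0.479 to 6.24 CPM at 100 ng/mL, against 0.74 to 3.91 CPM unstimulated (without TMM scaling).

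Levels between genes can be set side by side only per length, as the deposited RPKM. Timp2 led at every dose, with 84.2, 69.7 and 63.2 RPKM at 0, 10 and 100 ng/mL. Mmp2 held 51.9% of the summed MMP RPKM in unstimulated cells and Mmp14 31.8%. At 100 ng/mL Mmp14 held 49.9%, Mmp2 32.7% and Mmp15, which ranked 24 among the members in unstimulated cells and 9 at 100 ng/mL, most of the rest, with 9.67 RPKM, against 0.226 RPKM unstimulated. Adamts1 and Adamts4 held 47.3% and 15.8% of the ADAMTS sum at 100 ng/mL.

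Summed over the 19 ADAMTS genes, levels were 44.1 ± 2.87, 40.2 ± 4.5 and 74.9 ± 7.94 RPKM at 0, 10 and 100 ng/mL (SD, n = 5 each). For the 23 MMP genes they were 87 ± 6.85, 73.3 ± 10.7 and 93.6 ± 8.82 RPKM, and the ranges of the 3 doses overlapped. For the 4 TIMP genes they were 190 ± 34.1, 165 ± 20.4 and 117 ± 8.82 RPKM. Timp1 made the largest part of the TIMP difference, with means of 69.8 RPKM unstimulated and 25.9 RPKM at 100 ng/mL. Timp2 had 84.2 and 63.2 RPKM, and Timp3 36.3 and 27.8 RPKM. At 100 ng/mL the ADAMTS sums lay above, and the TIMP sums below, those of every library at the lower doses.

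The ratio of TIMP to MMP plus ADAMTS RPKM was 1.42, 1.27, 1.46, 1.36 and 1.71 in the unstimulated libraries. It was 1.4, 1.51, 1.36, 1.43 and 1.58 at 10 ng/mL, and 0.661, 0.733, 0.882, 0.58 and 0.658 at 100 ng/mL. Inhibitor transcripts thus outnumbered protease transcripts, per length, in every library of the lower doses and in none at 100 ng/mL. The ratio counts transcripts and not protein, and no p is given for a sum over chosen genes.

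**Figure D5:**
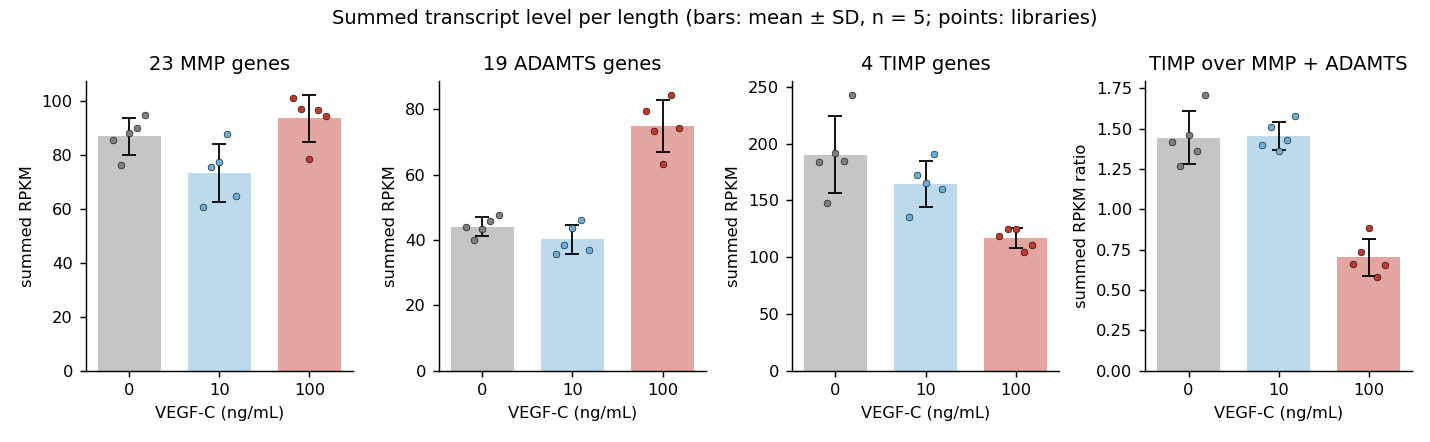
Summed RPKM of the 23 MMP, 19 ADAMTS and 4 TIMP genes and the ratio of the TIMP sum to the protease sum at 0, 10 and 100 ng/mL VEGF-C, with bars for mean ± SD of 5 libraries and points for libraries. The ratio averages 1.44, 1.46 and 0.703, and the 100 ng/mL libraries do not overlap the others.

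At 10 ng/mL no member was called against unstimulated cells, and 0% of all genes were (edgeR quasi-likelihood test). Members' log2 fold changes ran from -0.63 to 0.53, and the smallest adjusted p was 0.969. Even unadjusted, 0 of 33 had a p under 0.05. Over all genes 844 had an unadjusted p under 0.05, DESeq2 called 8, none of them a member, and limma-voom called 0. The highest of these values was that of Adamts18, at 0.53 ± 0.3, and the lowest that of Mmp3, at -0.63 ± 0.49. This comparison shares its unstimulated libraries with that at 100 ng/mL. Mmp15 had a log2 fold change of 0.17 ± 0.47, Adamts1 of -0.33 ± 0.19 and Adamts4 of -0.09 ± 0.32.

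At 100 ng/mL against 10 ng/mL, 7 members were higher and 13 lower, where 19.9% and 20.6% of all genes were. The same 100 ng/mL libraries serve both comparisons, so these counts are not a second set of evidence. Mmp24 was called higher here, at 1.31 ± 0.35 (SE; edgeR adjusted p = 0.00793), and Mmp2, Mmp3 and Mmp10 were not called. The log2 fold change of Mmp3 was -0.96 with all libraries, and -2.02 without 100 ng/mL B, where it was called (edgeR adjusted p = 0.00475). The log2 fold change of Mmp15 was 5.28 ± 0.45 (SE; edgeR adjusted p = 4.97e-07), that of Adamts1 1.93 ± 0.2 (SE; edgeR adjusted p = 2.93e-06) and that of Adamts18 -4.64 ± 0.42 (SE; edgeR adjusted p = 9.26e-07). The median over the 33 members was -0.26.

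Beyond the family itself, genes that activate, inhibit or serve these proteases were counted in 7 lists, which share some genes with the family and with each other. The share over all 17650 genes at 100 ng/mL against unstimulated, 21.4% higher and 21.5% lower, stands beside each of the list counts that follow. No list was tested as a set. Of 12 tested proprotein convertases, plasminogen activators and related genes, 6 were higher and 5 lower at 100 ng/mL. Plau, the urokinase that starts the plasmin cascade, had 1430 ± 308 CPM at 100 ng/mL and 394 ± 61.6 CPM unstimulated (SD, n = 5 each), a log2 fold change of 1.86 ± 0.17. Pcsk6, a convertase of proproteins, had 193 ± 47.1 and 35.4 ± 13.3 CPM, and Plat, the tissue plasminogen activator, 281 ± 49.8 and 81.7 ± 31 CPM.

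Of 11 genes tied to VEGF-C processing, 4 were higher and 6 lower. They include the 3 N-proteinases and Plau above, and Pcsk5, a convertase that can cut the VEGF-C precursor, which had 2.06 ± 1.3 CPM at 100 ng/mL and 19.2 ± 11.8 CPM unstimulated, a log2 fold change of -3.22 ± 0.52. Of 14 tested inhibitors and clearance receptors, the 4 TIMPs among them, 3 were higher and 9 lower. A2m, the plasma protease inhibitor alpha-2-macroglobulin, had a log2 fold change of -4.05 ± 0.38, Thbs1, thrombospondin, of -2.16 ± 0.25, and Col18a1, the source of endostatin, of 1.24 ± 0.16.

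Of 12 hyalectans and other proteoglycan or matrix substrates, 3 were higher and 7 lower. Those with the smallest p, Dcn, Bgn and Comp, encode decorin, biglycan and cartilage oligomeric matrix protein, and their log2 fold changes were -4.62 ± 0.42, -2.58 ± 0.26 and -1.57 ± 0.28. Dcn is also one of the fibroblastic markers above. Of 13 procollagen-processing partners, 4 were higher and 6 lower. Lox and Loxl3, which crosslink collagen, had log2 fold changes of -3.72 ± 0.48 and -0.89 ± 0.14, and Plod1, a collagen lysyl hydroxylase, 1.24 ± 0.19.

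The related ADAM sheddases were split, with 5 higher and 4 lower of 10 tested. Adam19 had a log2 fold change of 1.16 ± 0.15, Adam9 of -0.81 ± 0.13 and Adam33 of -3.2 ± 0.33. Among the ADAMTS-like genes, which lack the protease domain, 1 was higher and 5 lower of 7 tested. Adamtsl1, the one that rose, had 6.09 ± 3.62 CPM at 100 ng/mL and 0.346 ± 0.107 CPM unstimulated, a log2 fold change of 4.12 ± 0.47, while Papln and Adamtsl5 had -2.85 ± 0.34 and -1.59 ± 0.31. All values named here had an edgeR adjusted p under 0.05, and medians over the 7 lists ran from -1.66 to -0.03, beside 0.008 over all genes.

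The 13 members below the filter were Adamts8, Adamts13, Adamts16, Adamts19, Adamts20, Mmp1a, Mmp1b, Mmp7, Mmp8, Mmp20, Mmp21, Mmp25 and Mmp27. Their counts over all 15 libraries totalled 0.2 to 74 per gene, and no library exceeded 0.367 CPM. In a fit with no filter 11 of them could be fitted, and at 100 ng/mL against unstimulated cells 1 was higher, 2 were lower and 8 were not called. Mmp25, whose product is held to the membrane by a lipid anchor, was the higher one, with 40 counts summed over the 100 ng/mL libraries, against 12.2 unstimulated (edgeR adjusted p = 0.0377). Mmp8 and Mmp27 were the lower ones. For the other 8 the low counts limit what could be detected. Of the 33 tested members 16 overlap another annotated gene, among them 8 of the 22 called, and their values are uncertain to that extent, since the strand setting of the counting is not given here.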

How the data were processed

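Poly-A RNA was sequenced as stranded libraries, per the labels' protocols. The deposited table holds the authors' estimated counts per gene and RPKM per gene for 15 libraries. Bowtie2, FastQC and limma are the tools, and GRCm38/mm10 the build, in the submitters' processing notes. Which counter was used, with what strand setting and rule for shared reads, is not given in the labels or file headers. Of all estimated counts in the table, 64.3% were not whole numbers, and they were rounded before testing.

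Totals ran from 27784906 to 38590841 counts per library. Genes were filtered by edgeR's filterByExpr, scaled by TMM and tested with edgeR 4.0.16 (R 4.3.3; quasi-likelihood test, Benjamini-Hochberg adjustment over 17650 genes), with all 15 libraries in 1 fit and no covariate. CPM values are TMM-scaled. The deposited RPKM were used to set levels of genes side by side, for the family sums and their ratio at each dose, and in the alternatives below. TMM scaling was not applied to them. On simulated counts for 100 ng/mL against unstimulated cells (17524 genes), 74.6% of genes changed 1.5-fold, 95.5% of those changed 2-fold and 95.5% of those changed 4-fold were recovered. Only 67, 67 and 66 genes were changed, where 7571 were called in the data. All of them had a mean of at least 1 CPM, so these shares do not cover members below that. DESeq2 1.42.0, limma 3.58.1, other filters and scalings, RPKM on a log2 scale with pseudocounts of 1 and 0.1, and leaving out each library were the alternatives.

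The members, classes and gene lists were chosen with earlier results of these data known. Values are printed in full for members called at 100 ng/mL with at least a 2-fold change and a mean of at least 1 CPM in a group, for the TIMPs, and for Mmp2, Mmp9, Mmp14, Adamts1 and Adamts3. The other lists give up to 3 called genes with the smallest p. Adamts5, Adamts7, Adamts12, Adamts17, Mmp8, Mmp10, Mmp16, Mmp19, Mmp24, Mmp25, Mmp27 and the remaining members named with values were chosen after their values were seen. Library letters were not used as pairs: the correlation of same-letter deviations at 100 ng/mL against unstimulated cells ran from -0.342 to 0.132, and 0 of 5 letters matched best with themselves. A check of this kind cannot exclude a culture shared by a letter, on which the labels are silent. Libraries of one dose differed by more than counting noise in every pair. Promoter sequences are RefSeq's (GRCm38.p6), and gene coordinates are GENCODE's on GRCm38. Counting error alone is covered by statements on detection.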

Additional observations from a re-analysis of the deposited data

Results flagged for a closer look

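Within the 3 groups of 5 libraries, 21 members gave 63 sets of values, and in 6 of them 1 library lay far from the other 4. Chance alone flags about 1 in 20 such sets. In unstimulated E, Adamts4 had 32.1 CPM, where the other 4 had 13.9 to 18.5 CPM, and in 10 ng/mL D it had 34.4 CPM, where the others had 12.4 to 15.2 CPM. In 10 ng/mL B, Mmp12 had 38.1 CPM, where the others had 16.4 to 22.2 CPM.

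The remaining 3 were all in 100 ng/mL B. Timp1 had 86.1 CPM there, where the others had 27.7 to 36.6 CPM. Mmp23 had 4.14 CPM, where the others had 0.876 to 1.18 CPM. Mmp3 had 1.07 CPM, where the others had 0.0328 to 0.218 CPM. The same library had the highest sum of fibroblastic and mural markers at that dose, and the part of this in the 3 values was not tested.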

How the results depend on the processing

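Of the 22 members called at 100 ng/mL against unstimulated cells, 18 were called under every alternative that tested them. The exceptions were Mmp3, Mmp9, Mmp10 and Timp3, and Mmp19, Mmp24 and Timp2 gained a call under some. With no filter on low counts, 7 members were higher and 18 lower, since Mmp25 (higher) and Mmp8 and Mmp27 (lower) were then tested and called. Of all 30229 genes in that fit, 3318 were higher and 4012 lower. Leaving out 1 library at a time gave 6 to 7 higher and 13 to 17 lower members against unstimulated cells (6767 to 7876 genes in all), and 7 higher and 10 to 14 lower against 10 ng/mL (6251 to 7581 genes). At 10 ng/mL against unstimulated cells it gave 0 members and 0 to 1 genes. DESeq2 called 8 genes there, where edgeR called 0. At an adjusted p of 0.01, 8 members were lower at 100 than at 10 ng/mL, where 13 were at 0.05, since the threshold is stricter. Over all 17650 genes, 2479 were lower at 0.01 and 3644 at 0.05. The log2 fold change of Timp4 at 100 against 10 ng/mL, 0.11 with all libraries, ranged from -0.02 (without 10 ng/mL E) to 0.33 (without 10 ng/mL A), and the cause was not tested.

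A fit with the library letter as a replicate block gave 6 higher and 16 lower members (7069 genes) against unstimulated cells and 7 and 13 (6582 genes) against 10 ng/mL. Timp3 lost its call against unstimulated cells in that fit. The labels do not say whether a letter marks a shared culture. With library size alone as scaling, 42.3% of called genes were higher at 100 ng/mL, against 49.9% with TMM. Members under about 1 CPM are limited by depth.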
